A study of Mus musculus with 6 samples.

Results

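The genes described here are 9 genes of the muscle sarcomere whose transcripts or proteins are known to respond to stretch: Ankrd1, Ankrd2, Ankrd23, Xirp1, Xirp2, Flnc, Csrp3, Fhl1 and Tcap. They were listed by name, with earlier results of these data known, and all 9 were found by gene symbol among the 53947 genes of the tables and passed the filter on low counts, as did 13576 genes in all. Total RNA depleted of ribosomal RNA was measured in the quadriceps of mice aged 12 weeks, in 3 HSALR samples and 3 WT samples. HSALR mice carry a transgene of the human skeletal actin gene, expressed in skeletal muscle, with 220 CTG repeats. Its CUG-repeat transcripts bind MBNL splicing factors, and the line is used as a model of myotonic dystrophy type 1. WT samples have no transgene. Strain, litter, and whether each sample came from a separate animal are not given in the labels, so p-values measure only the spread between these samples, which may be technical. The study addressed the effect of reduced MBNL activity on the RNA of skeletal muscle.

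The sarcomere is the contractile unit of striated muscle, bounded by Z-discs into which actin filaments and titin are anchored. Titin is the elastic protein that spans from the Z-disc to the middle of the sarcomere, and several proteins that sit on it can also enter the nucleus, so they are regarded as links between mechanical load and gene expression. Ankrd1, Ankrd2 and Ankrd23 encode the 3 muscle ankyrin repeat proteins, which bind the N2A region of titin's spring. Xirp1 and Xirp2 encode the actin-binding Xin repeat proteins, and Flnc encodes the muscle filamin that cross-links actin and binds Xin. Csrp3 encodes muscle LIM protein and Fhl1 a protein made of LIM domains, and Tcap encodes telethonin, which caps the end of titin in the Z-disc.

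Ankrd23 and Xirp2 were lower in HSALR muscle, each to less than 0.45 of its WT level by the fold change of edgeR. No other gene of the group passed the test in either direction. Called means an adjusted p below 0.05 in the quasi-likelihood test of edgeR, adjusted by the method of Benjamini and Hochberg over all 13576 genes tested. Of the 9 genes, 2 were called (22.2%), both of them lower, beside 11.8% of all tested genes called, 7.48% lower and 4.28% higher. None was called higher, while 2 had an unadjusted p below 0.05 in that direction and 2 were called higher with DESeq2. In 3 of the 9 genes (33.3%; Ankrd23, Xirp2 and Fhl1) the HSALR and WT libraries did not overlap in CPM, the count of a gene scaled to a common library total, a share close to the 37.8% of all tested genes. The median log2 fold change of the 9 genes was 0.03, beside 0.04 over all tested genes. When 1 library was left out, the number called among all genes was between 166 (without WT replicate 1) and 3294 (without HSALR replicate 2), against 1597 with all libraries. The number called among the 9 genes was then 0 without HSALR replicate 3, WT replicate 2 or WT replicate 3, 1 without WT replicate 1, and 4 without HSALR replicate 1.

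**Figure D1:**
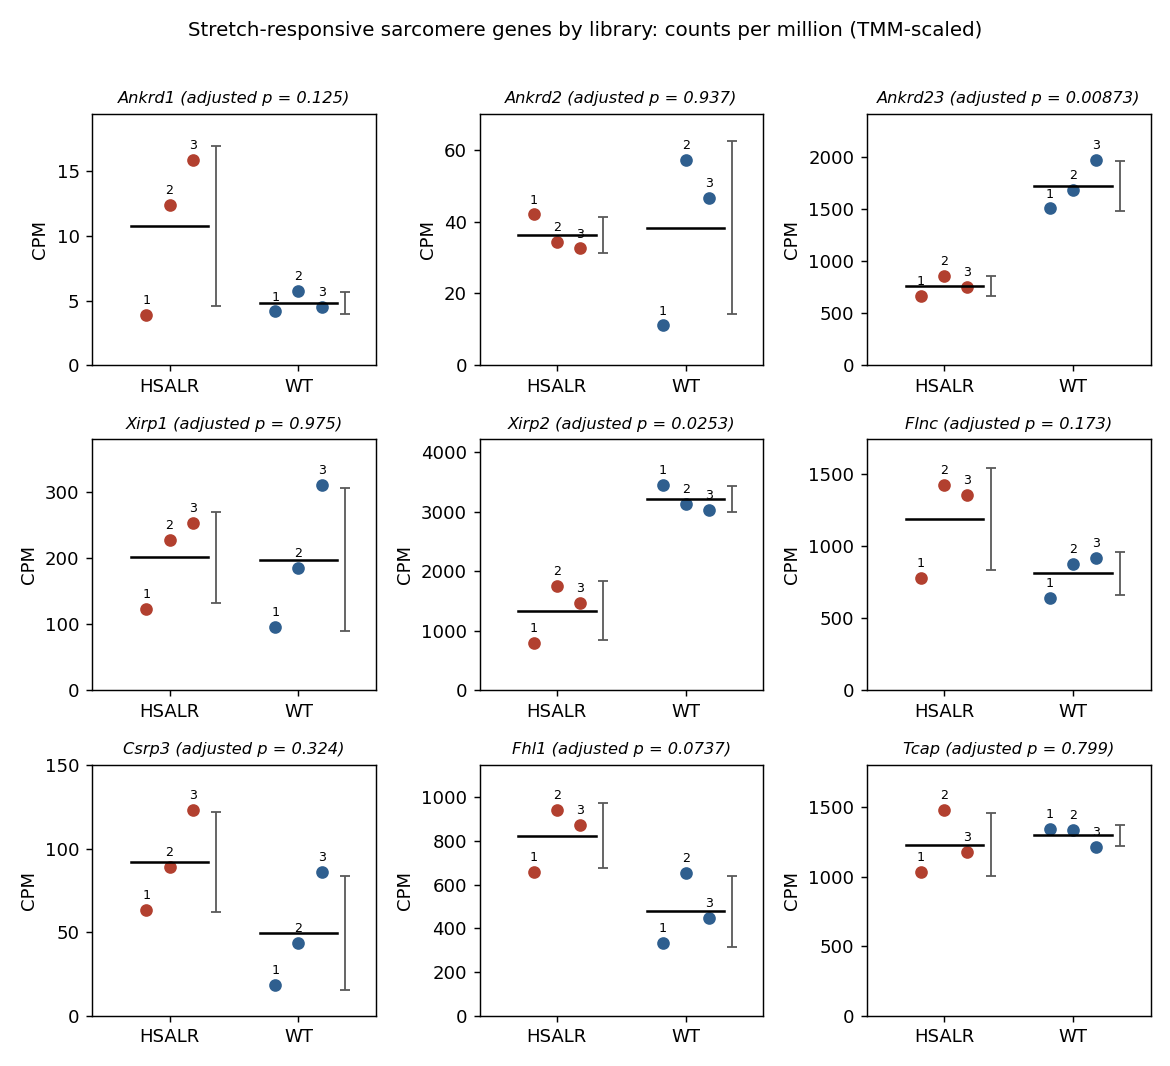
CPM (vertical axis from 0) of the 9 genes in each library, with HSALR in red and WT in blue. Points carry the replicate number, the horizontal line is the group mean, the bar beside it is 1 SD (n = 3), and the adjusted p is from edgeR. The 3 HSALR libraries lie below the 3 WT libraries for Ankrd23 and Xirp2 and above them for Fhl1, and the groups overlap in the other panels.

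Library totals ranged from 11468959 to 15023710 expected counts. A level of 3 counts in a library is 0.2 to 0.262 CPM. The abundant noncoding RNAs 7SL and 7SK took 43.9, 18.8 and 24.0% of the counts in HSALR replicates 1, 2 and 3, against 14.2, 14.1 and 15.5% in the WT replicates, so this share moved with the genotype, and HSALR replicate 1 stood apart. Adjustment for this share, used below, is therefore confounded with genotype. It is also not independent of leaving out HSALR replicate 1. That library was also the lowest of the HSALR libraries for 8 of the 9 genes, and WT replicate 1 was the lowest of the WT libraries for 7 of them. Adult skeletal muscle markers were present in every library. Their summed level was lower in HSALR (55996 to 99993 CPM, lowest in replicate 1) than in WT (101960 to 111180 CPM), without overlap, and their median log2 fold change was -0.40. Of the 7 markers, 0 were called by edgeR, and at an unadjusted p below 0.05, 1 was higher and 1 lower. In whole-tissue RNA of this kind, fewer cells of a type and less RNA per cell cannot be told apart.

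To set the genes beside each other, their levels were taken per transcript length, as TPM (transcript abundance corrected for length) rescaled to the sum of the protein coding genes in each library. Tcap was the most abundant of the 9 genes in both genotypes, with 3459 ± 432 in HSALR and 3489 ± 236 in WT (SD, n = 3 each). In HSALR the order below Tcap was Fhl1 (1096), Ankrd23 (919), Xirp2 (436), Flnc (307), Csrp3 (283), Ankrd2 (85.8), Xirp1 (78.8) and Ankrd1 (12.9). In WT it was Ankrd23 (1956), Xirp2 (961), Fhl1 (621), Flnc (199), Csrp3 (143), Ankrd2 (86.8), Xirp1 (74.0) and Ankrd1 (5.63). Neighbours whose libraries overlapped were Fhl1 and Ankrd23, Xirp2 and Flnc, Flnc and Csrp3, and Ankrd2 and Xirp1 in HSALR, and Flnc and Csrp3, Csrp3 and Ankrd2, and Ankrd2 and Xirp1 in WT. Thus Fhl1 stood below Ankrd23 and Xirp2 in all WT libraries, whereas within each of the 3 HSALR libraries it stood above both (930 against 874, 1155 against 960 and 1203 against 923 for Fhl1 against Ankrd23 in replicates 1, 2 and 3).

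The sequences upstream of the start are shown first for the genes that were called, since both fell and their promoters can be read side by side. RefSeq promoter windows, with 250 bases before each start, were found for 7 of the 9 genes (11 windows in all, from a table of build GRCm38.p6), and each window matched GRCm39 at a single place. No window was listed for Xirp1 or Tcap. The stretches below are those outside the exons of the transcripts that the deposited tables list, written 5′ to 3′ on the strand of the gene. Capitals mark an M-CAT motif (CATTCC, or GGAATG when read on the other strand), the binding motif of TEAD factors, in Ankrd23, and a MEF2 site, the motif of the MEF2 muscle transcription factors, in Xirp2. The first is at chr1:36574908-36575070 (minus strand) and ends 88 bases before the second of the Ankrd23 starts. The window of the first Ankrd23 start lay wholly in exons and held no M-CAT motif or MEF2 site. The other is at chr2:67276096-67276345 (plus strand) and ends at a Xirp2 start inside the gene, which begins at position 67004178. In every window, the nearest annotated start belonged to a transcript other than the canonical one of the gene. The distance to the canonical start was not measured, so whether a window lies at the main start of its gene was not determined.
Ankrd23: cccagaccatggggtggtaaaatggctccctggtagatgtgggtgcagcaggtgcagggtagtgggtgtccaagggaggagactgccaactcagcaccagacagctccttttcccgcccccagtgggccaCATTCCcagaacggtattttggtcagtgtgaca
Xirp2: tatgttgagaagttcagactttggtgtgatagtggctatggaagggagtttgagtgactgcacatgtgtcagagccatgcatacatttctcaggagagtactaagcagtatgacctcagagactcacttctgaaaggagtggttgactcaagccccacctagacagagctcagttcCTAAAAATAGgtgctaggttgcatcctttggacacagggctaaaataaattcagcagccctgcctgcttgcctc

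An M-CAT motif was also present in the windows of Ankrd1 and Flnc, and these matches are shown as 30-base stretches because they lie in annotated exons. In Ankrd1 the matches were 210 to 205 and 123 to 118 bases before the start (chr19:36097437-36097466 and chr19:36097350-36097379, minus strand), and in Flnc 104 to 99 bases before the second start (chr6:29433139-29433168, plus strand).
Ankrd1, distal: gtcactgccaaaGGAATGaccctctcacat
Ankrd1, proximal: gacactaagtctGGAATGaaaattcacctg
Flnc: cgggccgggcggCATTCCtgggaggccggc
Of all 32851 windows in the table, 12.6% held an M-CAT motif, 2.92% a MEF2 site, 1.47% a CArG box (the motif of serum response factor, held here by the first Fhl1 window) and 66.2% an E-box (CANNTG, the motif of MyoD and its relatives). All motifs were searched on both strands. E-boxes were found in 8 of the 11 windows of these genes. Genes with an M-CAT motif therefore included Ankrd23, which fell, and Ankrd1 and Flnc, which were not called.

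Among the ankyrin repeat proteins, Ankrd23 (chromosome 1, positions 36563865 to 36575964 on GRCm39, minus strand) had 667, 860 and 749 CPM in HSALR replicates 1, 2 and 3, against 1503, 1679 and 1971 CPM in WT replicates 1, 2 and 3. The highest HSALR library lay well below the lowest WT library. Rounded to whole reads, these were 7016, 10663 and 11152 expected counts in HSALR, against 21249, 25348 and 26503 in WT. In TPM they were 95.1, 244 and 203 in HSALR, against 484, 577 and 607 in WT. Ankrd23 thus averaged 759 ± 96.8 CPM in HSALR and 1717 ± 236 CPM in WT (SD, n = 3 each), a log2 fold change of -1.18 ± 0.18 (SE; edgeR adjusted p = 0.00873), or 2.26-fold lower, and it ranked at position 181 of all tested genes by p. The call held in 14 of 17 alternative settings and was lost without HSALR replicate 3 (adjusted p = 0.062), WT replicate 2 (adjusted p = 0.0532) or WT replicate 3 (adjusted p = 0.0596), and its log2 fold changes over all settings spanned -1.72 to -1.01.

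Reads of Ankrd23 can be divided with another annotated gene. The protein coding model Gm42417 lies on the same strand and shares 2109 exonic bases with it, and it received 0, 3.12 and 9.65 expected counts in HSALR, against 22.2, 33.9 and 30.2 in WT. These counts are small beside those of Ankrd23, and they were lower in HSALR as well. The antisense gene Cnnm3 shares 661 exonic bases with Ankrd23 on the other strand. It received 99.9, 99 and 137 expected counts in HSALR replicates 1, 2 and 3, against 114, 122 and 169 in the WT replicates. The library kit keeps strand, but whether the counting used the strand was not checked.

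Ankrd1 and Ankrd2, the other two genes of the family, did not follow Ankrd23. Ankrd1, the cardiac ankyrin repeat protein that is scarce in resting skeletal muscle, had 3.90, 12.4 and 15.9 CPM in HSALR replicates 1, 2 and 3, against 4.17, 5.76 and 4.54 CPM in WT (41, 154 and 237 expected counts in HSALR, against 59, 87 and 61 in WT). HSALR replicates 2 and 3 were above all WT libraries, and HSALR replicate 1 was below them. Ankrd1 averaged 10.7 ± 6.18 CPM in HSALR and 4.82 ± 0.833 CPM in WT, a log2 fold change of 1.16 ± 0.45 that was not called (edgeR adjusted p = 0.125). It was called higher without HSALR replicate 1 (log2 fold change 1.56, adjusted p = 0.00164), after adjustment for 7SL and 7SK content (2.07, adjusted p = 0.00454) and with DESeq2 (adjusted p = 0.0496), and in none of the other 14 settings.

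Ankrd2, a muscle ankyrin repeat protein known for its high level in slow fibres, had 42.0, 34.4 and 32.5 CPM in HSALR, against 11.1, 57.2 and 46.5 CPM in WT replicates 1, 2 and 3. The 3 HSALR libraries lay between the lowest WT library and the other two, so that the spread was far larger in WT (38.3 ± 24.1 CPM) than in HSALR (36.3 ± 5.01 CPM). The log2 fold change was -0.08 ± 0.56 (edgeR adjusted p = 0.937), and its sign turned in 4 of 17 settings. The summed level of 11 slow fibre genes was 1304, 361 and 256 CPM in HSALR replicates 1, 2 and 3, against 146, 1808 and 176 CPM in the WT replicates. HSALR replicate 1 and WT replicate 2, the highest of their groups for Ankrd2, were also the highest for the slow genes. In contrast, WT replicates 1 and 3 had similar slow sums (146 and 176 CPM) but 11.1 and 46.5 CPM of Ankrd2. None of these 11 genes was called by edgeR, DESeq2 or limma-voom, none had an unadjusted p below 0.05, and their median log2 fold change was -0.03. Atp2a2, the calcium pump of slow fibres, had the lowest p of them (log2 fold change -0.62 ± 0.98, edgeR adjusted p = 0.704). The part of fibre type composition in the level of Ankrd2 was not tested.

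Because a ratio of 2 genes within a library does not depend on how libraries are scaled, the family members were also set against each other in TPM. Such a ratio does not remove the trend with transcript length described below. The median log2 fold change was 0.31 in the length class of Ankrd2 and 0.01 in that of Ankrd23 and Ankrd1. Ankrd23 exceeded Ankrd2 by 8.30, 12.8 and 12.0 times in HSALR, against 68.1, 14.9 and 21.4 times in WT replicates 1, 2 and 3. The groups did not overlap, although WT replicate 2 was close to HSALR replicate 2. The ratio of Ankrd1 to Ankrd2 was 0.0472, 0.188 and 0.253 in HSALR, against 0.190, 0.0538 and 0.0493 in WT, with complete overlap. The coding sequences of the family were 60.3 to 65.2% identical over aligned bases, and the longest run that any pair shared was 26 bases, between Ankrd2 and Ankrd23.

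**Figure D2:**
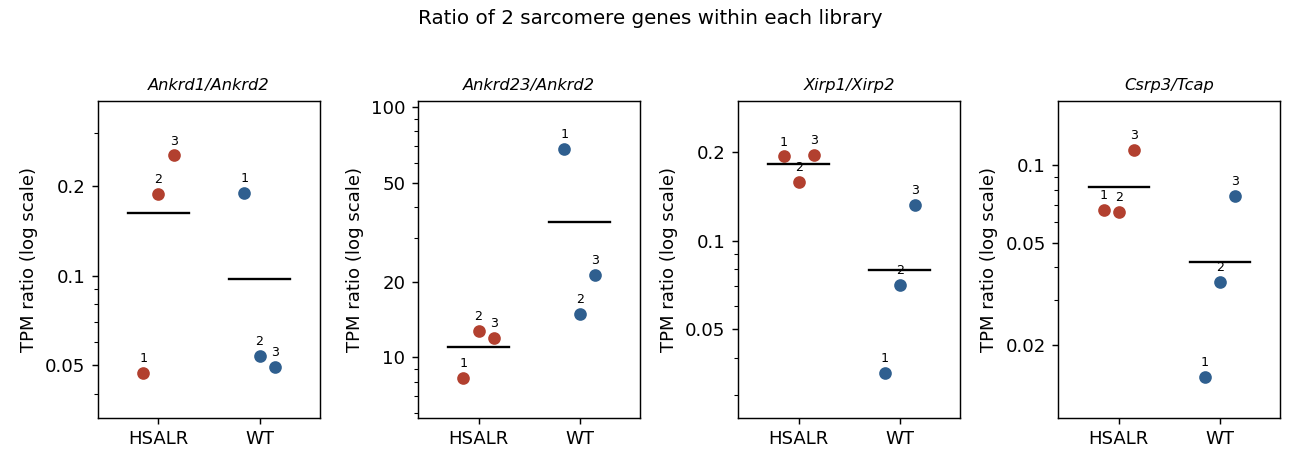
Ratio of the TPM of 2 genes in each library (log scale), with HSALR in red left of WT in blue. Points carry the replicate number and lines are group means. Ankrd23/Ankrd2 lies between 8.30 and 12.8 in HSALR and between 14.9 and 68.1 in WT, Xirp1/Xirp2 is higher in every HSALR library than in any WT library, and the other ratios overlap.

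The profile of Ankrd23 over the 6 libraries (log2 CPM minus the WT mean) was compared with those of 6640 protein coding genes that averaged 10 CPM or more. The 3 genes with the smallest root mean square difference were Egln1, a prolyl hydroxylase that senses oxygen (difference 0.0721 on the log2 scale), Slc38a2, a transporter of neutral amino acids (0.0925), and Cpeb4, a protein that binds polyadenylation elements of mRNA (0.103). Their log2 fold changes were -1.16 ± 0.14 for Egln1, -1.11 ± 0.15 for Slc38a2 and -1.10 ± 0.14 for Cpeb4, beside -1.18 ± 0.18 for Ankrd23. Because the genes were picked by their profile over these same libraries, fold changes near that of Ankrd23 follow from the choice and are no separate result.

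Of the Xin repeat genes, Xirp2 (chromosome 2, positions 67004178 to 67356962, plus strand) had 792, 1755 and 1466 CPM in HSALR replicates 1, 2 and 3, against 3454, 3134 and 3036 CPM in the WT replicates. All HSALR libraries were below all WT libraries, and HSALR replicate 1 was the lowest. In expected counts these were 8326, 21753 and 21840 in HSALR, against 48838, 47313 and 40829 in WT, and in TPM 29.3, 135 and 113 in HSALR, against 290, 294 and 239 in WT. Xirp2 averaged 1338 ± 494 CPM in HSALR and 3208 ± 219 CPM in WT, and its log2 fold change was -1.26 ± 0.28 (edgeR adjusted p = 0.0253), or 2.40-fold lower. The call held in 12 of 17 settings. It was lost with each library's length trend removed (-1.11, adjusted p = 0.0558), without HSALR replicate 3 (adjusted p = 0.0888) and without WT replicates 1, 2 or 3 (adjusted p = 0.12, 0.096 and 0.0947). After adjustment for 7SL and 7SK content it was called at a smaller size (-0.69, adjusted p = 0.012).

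Xirp1, the shorter of the Xin repeat genes, had 123, 227 and 253 CPM in HSALR, against 96.4, 185 and 310 CPM in WT replicates 1, 2 and 3. The groups overlapped throughout, with 201 ± 68.4 CPM in HSALR and 197 ± 107 CPM in WT. Its log2 fold change was 0.03 ± 0.45 (edgeR adjusted p = 0.975), and its sign turned in 5 of 17 settings. Within each library, Xirp1 was 0.194, 0.159 and 0.196 of Xirp2 in HSALR, against 0.0354, 0.0708 and 0.132 of Xirp2 in WT replicates 1, 2 and 3. Every HSALR ratio exceeded every WT ratio, and the mean ratio was 2.30 times as high in HSALR. The coding sequences of Xirp1 (5439 bases) and Xirp2 (11352 bases) were 69.6% identical over aligned bases, with no shared run longer than 14 bases.

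Xin repeat proteins are concentrated at the myotendinous junction, where fibres meet tendon. Markers of that junction and of tendon summed to between 168 and 861 CPM in HSALR, highest in replicate 1, and to between 153 and 293 CPM in WT. None of the 5 markers was called by edgeR, DESeq2 or limma-voom. Their median log2 fold change was 1.11, but the only one with an unadjusted p below 0.05 was Col22a1, the collagen of the junction itself, which went the other way (-0.66 ± 0.27, edgeR adjusted p = 0.134). Their part in the levels of Xirp1 and Xirp2 was not tested.

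Flnc, whose product binds Xin and is replaced during repair of the Z-disc, had 779, 1426 and 1355 CPM in HSALR, against 639, 875 and 920 CPM in WT replicates 1, 2 and 3. HSALR replicates 2 and 3 were above all WT libraries and HSALR replicate 1 was among them. Flnc averaged 1186 ± 355 CPM in HSALR and 811 ± 151 CPM in WT, a log2 fold change of 0.55 ± 0.25 that was not called (edgeR adjusted p = 0.173). It was called higher without HSALR replicate 1 (0.79, adjusted p = 0.0101) and after adjustment for 7SL and 7SK content (1.00, adjusted p = 0.0153). On log2(TPM + 0.1) its value was -0.037, on a scale where the median of all genes itself moved by -0.545.

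Of the chaperones and partners that act on filamin C, 1 passed in each direction, beside 4.28% of all tested genes called higher and 7.48% lower. Of 9 genes tested, 1 was called higher (Hspb1, a small heat shock protein, 0.96 ± 0.22, edgeR adjusted p = 0.0294) and 1 lower (Synpo2, which carries filamin to chaperone-assisted autophagy, -0.76 ± 0.19, adjusted p = 0.0371). At an unadjusted p below 0.05, 1 was higher and 4 lower, DESeq2 called 1 higher and 2 lower, and limma-voom 1 higher and 1 lower. Their median log2 fold change was 0.00. Bag3, the co-chaperone of that pathway, was not called (-0.34 ± 0.14, adjusted p = 0.136).

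Among the LIM proteins, Fhl1 had 658, 942 and 872 CPM in HSALR, against 333, 653 and 446 CPM in WT replicates 1, 2 and 3. The lowest HSALR library was just above the highest WT library. Fhl1 averaged 824 ± 148 CPM in HSALR and 477 ± 162 CPM in WT, a log2 fold change of 0.79 ± 0.26 that did not pass the test (edgeR adjusted p = 0.0737). It was called higher with DESeq2 (adjusted p = 0.0132) and with no filter on low counts (adjusted p = 0.0276), and in none of the other 15 settings, which gave log2 fold changes from 0.23 to 1.07.

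Csrp3, a Z-disc protein that also enters the nucleus of differentiating muscle cells, had 63.4, 89.1 and 123 CPM in HSALR, against 18.4, 43.6 and 86.0 CPM in WT replicates 1, 2 and 3. The groups overlapped, and WT replicate 3 exceeded HSALR replicate 1. Its mean was 91.9 ± 30.0 CPM in HSALR and 49.3 ± 34.2 CPM in WT, and its log2 fold change was 0.90 ± 0.57 (edgeR adjusted p = 0.324). The value was 0.51 without WT replicate 1 and 1.57 without WT replicate 3, neither of them called. Tcap, in contrast, had nearly the same mean in both genotypes, 1229 ± 228 CPM in HSALR and 1297 ± 75.2 CPM in WT. Its libraries had 1032, 1479 and 1176 CPM in HSALR, against 1345, 1336 and 1210 CPM in WT, and the log2 fold change was -0.08 ± 0.18 (edgeR adjusted p = 0.799), with its sign turned in 2 of 17 settings. The ratio of Csrp3 to Tcap in TPM was 0.0670, 0.0658 and 0.115 in HSALR, against 0.0150, 0.0351 and 0.0762 in WT, with 1 WT library above 2 of the HSALR libraries.

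**Figure D3:**
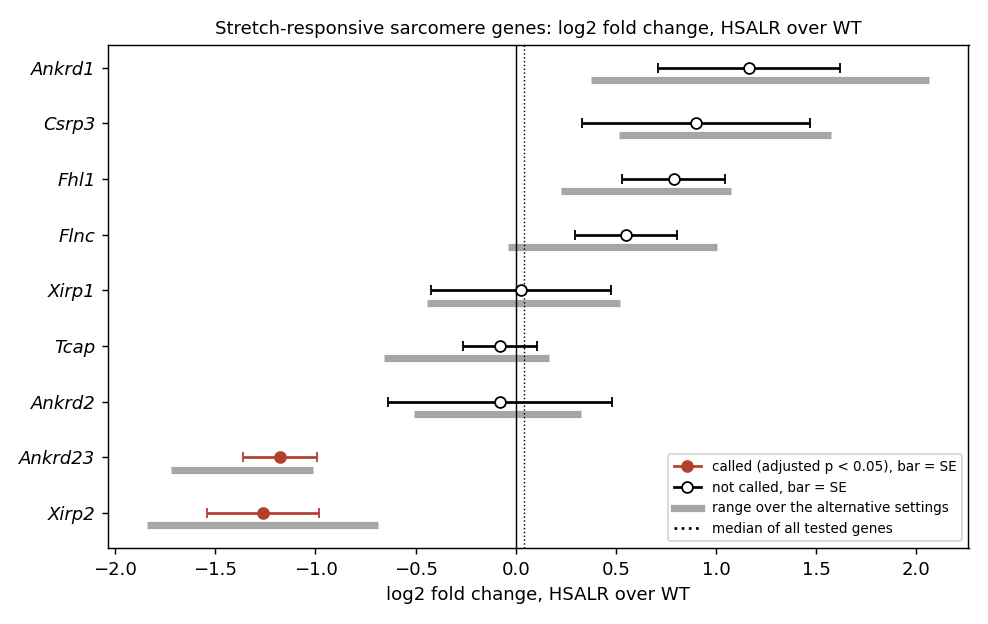
Log2 fold change in HSALR over WT for each gene (points, with bars of 1 SE), filled red where called by edgeR. Grey bars give the range over 17 alternative settings, including log2(TPM + 0.1), where the median of all genes moved by -0.545, and the dotted line the median of all tested genes (0.04). Only the ranges of Ankrd23 and Xirp2 lie wholly below 0, and those of Ankrd1, Csrp3 and Fhl1 lie wholly above it.

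Paralogs of these genes were higher or not called. Among 7 paralogs from the LIM and filamin families, 1 was called higher (Csrp2, 1.38 ± 0.38, edgeR adjusted p = 0.0464) and none lower, beside 4.28% of all tested genes called higher. At an unadjusted p below 0.05, 3 were higher (Csrp2, Csrp1 and Flna) and none lower. DESeq2 called 1 higher and none lower, and limma-voom called none in either direction. Their median log2 fold change was 0.55. Csrp2 was scarce, with 5.01 ± 2.02 CPM in HSALR and 1.91 CPM in WT.

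Partners of the titin spring and of the Z-disc were lower or not called, beside 7.48% of all tested genes called lower. Mypn, Palld, Synpo2, Ttn and Neb belong to the longest of the 8 length classes described below, of which 19.6% were called lower. The part of transcript length in these lists was not tested. Of 8 partners of the titin spring, 3 were called lower (Hsp90aa1, a chaperone, -0.88 ± 0.14, edgeR adjusted p = 0.0101; Mypn, myopalladin, which binds the ankyrin repeat proteins, -0.79 ± 0.20, adjusted p = 0.036; Palld, palladin, -0.62 ± 0.17, adjusted p = 0.0452). None was called higher. At an unadjusted p below 0.05, 5 were lower and none higher, DESeq2 and limma-voom each called 4 lower and none higher, and the median was -0.57. Titin itself (Ttn) was not called (-1.29 ± 0.37, adjusted p = 0.0537). Of 15 Z-disc partners tested, 3 were called lower (Myoz3, a calsarcin of fast fibres, -1.14 ± 0.25, adjusted p = 0.0271; Mypn; Synpo2) and none higher. At an unadjusted p below 0.05, 9 were lower and 1 higher, DESeq2 called 7 lower and none higher, and limma-voom 4 lower and none higher. Their median was -0.45. Summed levels did not overlap for the titin spring partners (30261 to 80529 CPM in HSALR and 126510 to 148100 CPM in WT), but that sum was nearly all Ttn (55147 ± 25026 CPM in HSALR and 135279 ± 10985 CPM in WT), and Cryab (0.26 ± 0.19) and Fhl2 (0.84 ± 0.60) had fold changes of the other sign, without a call. Those of the Z-disc partners did not overlap either (11529 to 22826 CPM in HSALR and 28483 to 30686 CPM in WT), and the largest part was Neb, nebulin, which was not called (8627 ± 3220 CPM in HSALR and 17572 ± 953 CPM in WT, edgeR adjusted p = 0.0549).

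Because muscle ankyrin repeat genes are known targets of YAP and TEAD, which act through the M-CAT motif, genes of that pathway were examined. Of 18 tested, 1 was called higher (Tead4, 1.66 ± 0.46, edgeR adjusted p = 0.0493) and 2 lower (Tead1, -1.17 ± 0.15, adjusted p = 0.00521; Lats2, a kinase that inhibits YAP, -0.59 ± 0.14, adjusted p = 0.0319). Of all tested genes, 4.28% were called higher and 7.48% lower. Tead1, with 95.2 ± 15.8 CPM in HSALR and 215 CPM in WT, was the more abundant of the 2 TEAD genes called, and Tead4 had 3.99 ± 2.15 CPM in HSALR and 1.27 CPM in WT. At an unadjusted p below 0.05, 3 were higher and 2 lower, DESeq2 called 2 higher and 2 lower, and limma-voom 2 lower and none higher. The median over the pathway was 0.19. Of 9 tested genes of the SRF and MRTF pathway, which also responds to load, none was called by edgeR, while 2 were higher and 2 lower at an unadjusted p below 0.05 and DESeq2 called 2 higher and 1 lower, and limma-voom none. Abra, an activator of that pathway in striated muscle, had the lowest p (-0.82 ± 0.24, adjusted p = 0.0534).

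At the integrin costamere, which joins Z-discs to the membrane, 4 of 13 genes were called lower and none higher, beside 7.48% of all tested genes called lower. At an unadjusted p below 0.05, 4 were lower and 2 higher, DESeq2 called 4 lower and 1 higher, and limma-voom 4 lower and none higher. Those with the lowest p were Itga7, the laminin receptor of muscle (-0.64 ± 0.12, edgeR adjusted p = 0.0167), Parvb (-0.68 ± 0.15, adjusted p = 0.0251) and Synm, the intermediate filament protein synemin (-1.13 ± 0.28, adjusted p = 0.0354). The median was -0.03. The other gene called lower was Tln2 (-0.68 ± 0.18, edgeR adjusted p = 0.0437). Synm and Tln2 belong to the longest of the 8 length classes described below, of which 19.6% were called lower.

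Transcript length moved with the comparison over all genes. When the protein coding genes were put into 8 classes of transcript length, the median log2 fold change was 0.31 in the shortest class and -0.18 in the longest. Of the shortest class 11.6% were called higher, beside 0.91% lower, and of the longest 2.47% were called higher, beside 19.6% lower. Ankrd2, Csrp3 and Tcap belong to the shortest class, and Xirp1, Xirp2 and Flnc to the longest. Xirp2, at -1.26, lay far below the median of its class, whereas Flnc, in the same class, was at 0.55 and Xirp1 at 0.03. Ankrd23 and Ankrd1 share a class whose median was 0.01. With each library's length trend removed Ankrd23 was still called (-1.24, edgeR adjusted p = 0.0102), whereas Xirp2 was not (-1.11, adjusted p = 0.0558).

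**Figure D4:**
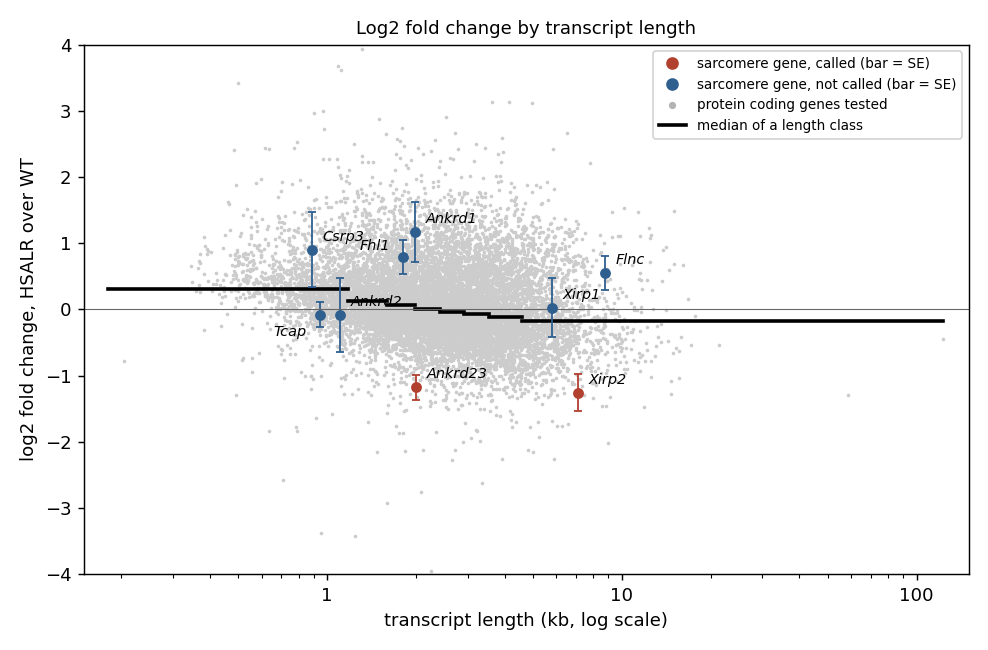
Log2 fold change in HSALR over WT against transcript length (kb, log scale) for 12298 protein coding genes (grey; 10 lie outside the axes), with the 9 genes marked, red where called, and bars of 1 SE. Black lines are the medians of 8 length classes, which run from 0.31 for the shortest to -0.18 for the longest. Ankrd23 and Xirp2 lie below the medians of their classes and Flnc above its own.

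The length column gives the mean length of a gene's transcripts weighted by their estimated abundance, so a change in it shows a shift in the isoforms to which reads were assigned. It was a description only, since 3 against 3 libraries cannot give an exact permutation p below 0.1. For Ankrd2 it was 1100 bases in all WT libraries and 1104, 1117 and 1104 bases in HSALR replicates 1, 2 and 3, so the groups did not overlap, although the difference was 8.51 bases on average. For Xirp2 it averaged 6945 ± 319 bases in HSALR and 7215 ± 269 bases in WT, with overlap, and for Fhl1 1829 ± 42.2 bases in HSALR and 1787 ± 20.3 bases in WT, also with overlap. Those of Ankrd1, Ankrd23, Csrp3, Xirp1 and Flnc overlapped as well, and Tcap has a single transcript of 948 bases.

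The summed macrophage, regenerating fibre and denervated fibre markers were higher in every HSALR library than in any WT library. Of all tested genes, 4.28% were called higher, and 37.8% did not overlap between the groups in CPM. Whether any marker list had a part in the levels of the 9 genes was not tested. Macrophage markers summed to 120 to 385 CPM in HSALR and 79.8 to 94.5 CPM in WT, and 3 of 4 were called higher by edgeR. Markers of regenerating fibres and satellite cells summed to 48.6 to 59.5 CPM in HSALR and 38.2 to 44.3 CPM in WT, with 1 of 6 called higher, and those of denervated fibres to 48.7 to 57.7 CPM in HSALR and 36.7 to 46.6 CPM in WT, with 1 of 5 called higher. The regenerating and denervated lists share Ncam1 and Myog, neither of them called. Their log2 fold changes were 0.69 ± 0.23 for Ncam1 and -0.34 ± 0.22 for Myog (edgeR adjusted p = 0.0742 and 0.313). Fibroadipogenic progenitor markers summed to 464 to 1340 CPM in HSALR, highest in replicate 1, and 431 to 470 CPM in WT, with none of 3 called by edgeR, 2 higher at an unadjusted p below 0.05 and 2 called higher by DESeq2. Smooth muscle (67.8 to 89.1 CPM in HSALR and 80.5 to 81.1 CPM in WT) and endothelial markers (76.2 to 119 CPM in HSALR and 87.4 to 105 CPM in WT) overlapped, with no call by edgeR, DESeq2 or limma-voom and none at an unadjusted p below 0.05. The 6 cardiac markers overlapped in their sum (10.2 to 30.3 CPM in HSALR and 3.89 to 44.1 CPM in WT), and 2 of them were tested. Myl4 was called higher (7.17 ± 2.05 CPM in HSALR and 2.98 CPM in WT). Myh6, the more abundant of the 2, had the other sign without a call (-0.58 ± 1.61, edgeR adjusted p = 0.835), with 608 counts in WT replicate 2. Myl7 was at 0 in all 6 libraries, and Nppa had 1 count in HSALR replicate 2 and 0 elsewhere.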

How the data were processed

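Total RNA of quadriceps from 3 HSALR and 3 WT samples was sequenced by the authors with a stranded, ribosomal RNA depleted protocol. Bowtie2, RSEM 1.3.1 and the build GRCm39 are named in the submitters' processing notes, without an annotation release. The authors deposited expected counts, which RSEM estimates per gene by sharing out reads that fit more than 1 gene. The TPM values deposited by the authors correct these counts for effective length and give each library the same sum, of which 7SL and 7SK RNA took 63.7 to 83.9%, so TPM was also rescaled to the protein coding genes. Other deposited columns give transcript lengths per library, and the authors' FPKM was not used.

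The genes were matched by symbol through GENCODE M39 (53400 of 53947 genes matched by stable identifier, 98.99%). The genes and the pathway and marker lists were chosen with earlier results of these data known. Expected counts were rounded, filtered with filterByExpr, scaled by TMM and tested with the robust quasi-likelihood F test of edgeR 4.0.16 (limma 3.58.1, R 4.3.3) with group as the only term, since no test is stated for these libraries. Groups came from the titles. Calls had a Benjamini-Hochberg adjusted p below 0.05, and the SE is the absolute log2 fold change over the square root of F. CPM values use the TMM-scaled totals. Replicates were no duplicates (chi-square per degree of freedom at least 9.78). Named genes were the 9 genes, up to 3 called genes with the lowest p per pathway list (the 1 with the lowest p where none was called), and the 3 genes closest in profile to Ankrd23. Bag3, Ttn, Cryab, Fhl2, Neb, Csrp1, Flna, Tln2, Col22a1, Ncam1, Myog, Myl4, Myh6, Myl7 and Nppa were named besides, after their values were seen.

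The alternatives changed the tool (DESeq2 1.42.0, limma-voom, or limma-trend with log2(TPM + 0.1) as the values), the scaling (upper-quartile or RLE factors) or the filter (none, or at least 5 CPM in 3 libraries). Others used protein coding genes only, a loess length trend (span 0.5) removed, a covariate for 7SL and 7SK content, the replicate number as a block, or 1 library fewer. Limits from counts cover counting error only. Coding identity was computed from GENCODE coding bases aligned with Biopython 1.88, in place of protein identity.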

Additional observations from a re-analysis of the deposited data

How the results depend on the processing

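The results kept their direction in 141 of 153 recalculations of the 9 fold changes, and 16 of these changed the call. Over all genes 1597 were called, against 519 on log2(TPM + 0.1), 935 after adjustment for 7SL and 7SK content and 166 to 3294 when 1 library was left out (without HSALR replicate 2, 3294; without HSALR replicate 3, 185; without WT replicates 1, 2 and 3, 166, 217 and 211). Of the 9 genes, 2 were called, both lower, against 4 (2 of them higher) with DESeq2, after that adjustment and without HSALR replicate 1, 1 (lower) with the length trend removed, 1 higher besides the same 2 lower with no filter, and 0 to 4 (0 to 2 higher, 0 to 2 lower) when 1 library was left out, with 0 without HSALR replicate 3, WT replicate 2 or WT replicate 3. Signs turned for Ankrd2 with limma-voom (0.22), for Xirp1 (-0.44) and Flnc (-0.037) on log2(TPM + 0.1) and for Tcap after that adjustment (0.17). With 1 library left out, log2 fold changes ranged from -0.51 to 0.33 for Ankrd2, -0.30 to 0.52 for Xirp1 and -0.24 to 0.042 for Tcap. The cause was not tested. Of the calls over all genes 36.4% were higher, against 48.2% with upper-quartile factors and 9.63% on log2(TPM + 0.1), where the median of all genes moved by -0.545.

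With the replicate block, 799 genes were called, and of the 9 genes 3, with Csrp3 higher (1.10, edgeR adjusted p = 0.0441, 1 higher) and Ankrd2 turned in sign (0.15). The labels do not say that numbers mark pairs, and deviations of same-numbered libraries correlated at 0.000517, -0.0949 and 0.228, so the numbers were not taken as pairs.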
